A study of Mus musculus with 12 samples.

Results

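The thioredoxin and peroxiredoxin system was followed through 10 genes, chosen by name from the 54532 genes of the deposited table: the thioredoxins Txn1 and Txn2, the thioredoxin reductase Txnrd1, the thioredoxin inhibitor Txnip, the peroxiredoxins Prdx1, Prdx2, Prdx3, Prdx5 and Prdx6, and the sulfiredoxin Srxn1. The cells were C2C12, an established line of mouse myoblasts, grown in 5% serum according to the labels, whereas the study's methods give another serum level. For 48 h they carried 30 nM of a control siRNA (siCONTROL), of siKEAP1, which lowers the adaptor that targets the transcription factor NRF2 for degradation, of siCCNF, which lowers the E3 ligase adaptor cyclin F, or both siRNAs at once (siKEAP1/siCCNF). Whether 30 nM is the total in the double depletion, and which siRNA against Ccnf was used for sequencing, is not given in the sources used here. Each of these 4 groups had 3 biological replicates, and the 12 poly(A) libraries held between 18464209 and 37743198 reads assigned to genes. All 10 genes were among the 15122 that passed edgeR's filter on low counts, with at least 628 reads in every library. The design asks whether CCNF depletion changes the response of antioxidant genes to KEAP1 depletion. Transfected cultures were sequenced whole, so fewer cells that express a gene cannot be told apart from less of its mRNA per cell.

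Thioredoxin is a small protein that reduces disulfide bonds in other proteins. Thioredoxin reductase, a selenoenzyme, restores it with electrons from NADPH, and TXNIP binds the reduced form and holds it back. Most peroxiredoxins spend these electrons on hydrogen peroxide and other peroxides, whereas Prdx6 is reduced by glutathione, and sulfiredoxin repairs the typical peroxiredoxins, Prdx1 to Prdx4, once peroxide has overoxidized them. Several of these genes are textbook targets of NRF2, which binds the antioxidant response element together with a small MAF protein. Txnip is instead best known as a gene that glucose induces through MondoA or ChREBP with their partner MLX, which bind the carbohydrate response element.

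The promoters of 4 genes are shown because they hold the letters by which these factors are usually recognised. RefSeq promoter windows of 300 bases (GRCm38.p6, 250 bases before to 50 after each start site) were found for 9 of the 10 genes, 11 windows in all, since Txnrd1 has 3 start sites. Both strands were searched for the antioxidant response element core TGACNNNGC, for the AP-1 element TGANTCA, and for a carbohydrate response element, taken as CACGNG and CNCGNG with 5 bases between them. Of all 32851 windows, 12.4% held the first, 7.81% the second and 0.365% the third. A variant of the first core, TGAGNNNGC, was added after the windows had been read and occurred in 17.6%. An AP-1 match can overlap either core, as TGACTCAGC in Prdx1 does for the first core and TGAGTCAGC in Srxn1 for the variant. Capitals mark all letters that any of these searches matched on either strand, and each stretch runs 5′ to 3′ on the plus strand. Those of Prdx1, Srxn1 and Txnip end before the first base of the gene in the deposited table, and that of Txnrd1 lies inside the gene and ends before the middle of its 3 RefSeq start sites.
Prdx1, chr4:116685349-116685543: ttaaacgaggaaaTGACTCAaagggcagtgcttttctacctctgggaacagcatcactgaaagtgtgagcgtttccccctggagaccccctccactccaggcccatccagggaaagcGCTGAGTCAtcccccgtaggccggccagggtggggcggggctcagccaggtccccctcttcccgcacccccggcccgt
Srxn1, chr2:152105274-152105515: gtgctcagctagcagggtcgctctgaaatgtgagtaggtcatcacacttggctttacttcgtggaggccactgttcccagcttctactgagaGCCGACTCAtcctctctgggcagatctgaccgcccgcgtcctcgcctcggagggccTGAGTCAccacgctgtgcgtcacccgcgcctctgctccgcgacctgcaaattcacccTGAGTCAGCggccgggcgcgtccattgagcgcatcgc
Txnrd1, chr10:82858956-82859205: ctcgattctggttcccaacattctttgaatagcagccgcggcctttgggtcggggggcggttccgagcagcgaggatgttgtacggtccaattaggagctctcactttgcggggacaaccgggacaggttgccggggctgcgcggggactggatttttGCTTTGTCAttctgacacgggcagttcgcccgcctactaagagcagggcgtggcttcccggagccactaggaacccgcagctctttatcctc
Txnip, chr3:96557707-96557956: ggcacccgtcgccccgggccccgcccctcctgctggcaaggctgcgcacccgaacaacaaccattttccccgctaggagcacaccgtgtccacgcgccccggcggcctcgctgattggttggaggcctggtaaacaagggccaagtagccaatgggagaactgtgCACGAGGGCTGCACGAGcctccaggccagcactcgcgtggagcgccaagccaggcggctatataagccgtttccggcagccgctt
In Prdx1 the antioxidant response element core began 133 bases before the RefSeq start site on the minus strand and overlapped an AP-1 match, with a further AP-1 match 237 bases before the start and a match to the variant core 15 bases after it, outside the stretch shown. Srxn1 held AP-1 matches 102 and 45 bases before its start, the nearer of them inside a match to the variant core, with a further match to that core upstream, and its match to the first core lay 28 bases after the start, outside the stretch shown. The match in Txnrd1 lay 92 bases before the middle of its 3 start sites. The Txnip match to the carbohydrate response element began 85 bases before the start and was the only one in the 11 windows. The windows of Txn1, Prdx2, Prdx3 and Prdx5 held no match to any of these searches, and that of Txn2 held the variant core alone. A match of letters is a description of the sequence and was not tested as a binding site.

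The siRNAs lowered their targets, Keap1 from 87.8 to 12.6 CPM (counts scaled to a common library size, with TMM factors) after siKEAP1 and Ccnf from 81.1 to 20.5 CPM after siCCNF. In siKEAP1/siCCNF cells Keap1 stood at 24.1 CPM, above its level after siKEAP1 alone by 0.93 log2 (standard error 0.0836, edgeR's adjusted p = 1.07e-06). Ccnf was also lower after siKEAP1 alone, at 59.4 CPM (-0.45, adjusted p = 0.000258), in the cells that serve as the background with CCNF not targeted. Its part in the results was not tested. Markers of cell state moved as well. For comparison, 20.4%, 22.5% and 20.6% of all genes tested were called higher after siKEAP1, after siCCNF and after both, and 20.2%, 25.5% and 23.6% lower. Of 6 myoblast markers, 5 were lower after siKEAP1, 6 after siCCNF and 6 after both, with a summed level of 1509 to 1743 CPM in siCONTROL, 1003 to 1021 after siKEAP1, 734 to 771 after siCCNF and 725 to 812 after both. Of 8 muscle differentiation markers, 7 could be tested, and 7, 6 and 7 of them were lower, with sums of 85.8 to 188, 6.89 to 8.69, 30.8 to 44.9 and 16.4 to 19.1 CPM in the same order. Of 4 proliferation markers, 3, 4 and 4 were lower, with sums of 1297 to 1628, 1028 to 1058, 773 to 877 and 835 to 999 CPM in the same order. Their part in the results below was not tested. Of 11 markers of blood, endothelium, epithelium, fat and nerve, 7 were too low to test, with Snap25 at 0 and Ptprc, Epcam and Adipoq at group means of 0.0593 CPM or less. Of the 4 tested, 2 rose after siKEAP1 (the macrophage marker Cd68, from 0.997 to 7.34 CPM, and the neuronal Tubb3), 2 rose (Cd68 and the epithelial Cdh1) and 1 fell (Tubb3) after siCCNF, and 2 rose and 2 fell after both. Their part in the results was not tested either. The sum of all 11, most of it Tubb3, was 26.4 to 30.9, 52.3 to 56.4, 7.53 to 10.5 and 11.6 to 14.1 CPM in the same order.

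The libraries siCONTROL replicate 1 and siKEAP1/siCCNF replicate 3 stood apart from the others. Per gene, chi-square between siCONTROL replicate 1 and its companions was 32.1 and 39.8, compared with 2.84 between those companions, and for siKEAP1/siCCNF replicate 3 it was 27.5 and 30.6, compared with 4.61. In both, short genes read high, with correlations between the deviation from the group mean and log gene length of -0.31 and -0.28 across 15122 genes of 1 library, which are not independent. Of the 10 genes, 8 lay above the group mean in siCONTROL replicate 1 (median deviation 0.21 log2) and 7 in siKEAP1/siCCNF replicate 3 (median 0.13 log2), as the plot of deviations shows. The gene models of Txn1 and Prdx3 are 1051 and 1478 bases long and shorter than most, with 8.80% and 13.7% of the genes tested at or below their length, and that of Txnrd1 is long, with 7086 bases and 80.3% at or below it. Results for the 10 genes are therefore given with all libraries and, where a call changed, without these 2, a setting chosen after seeing the data.

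**Figure D1:**
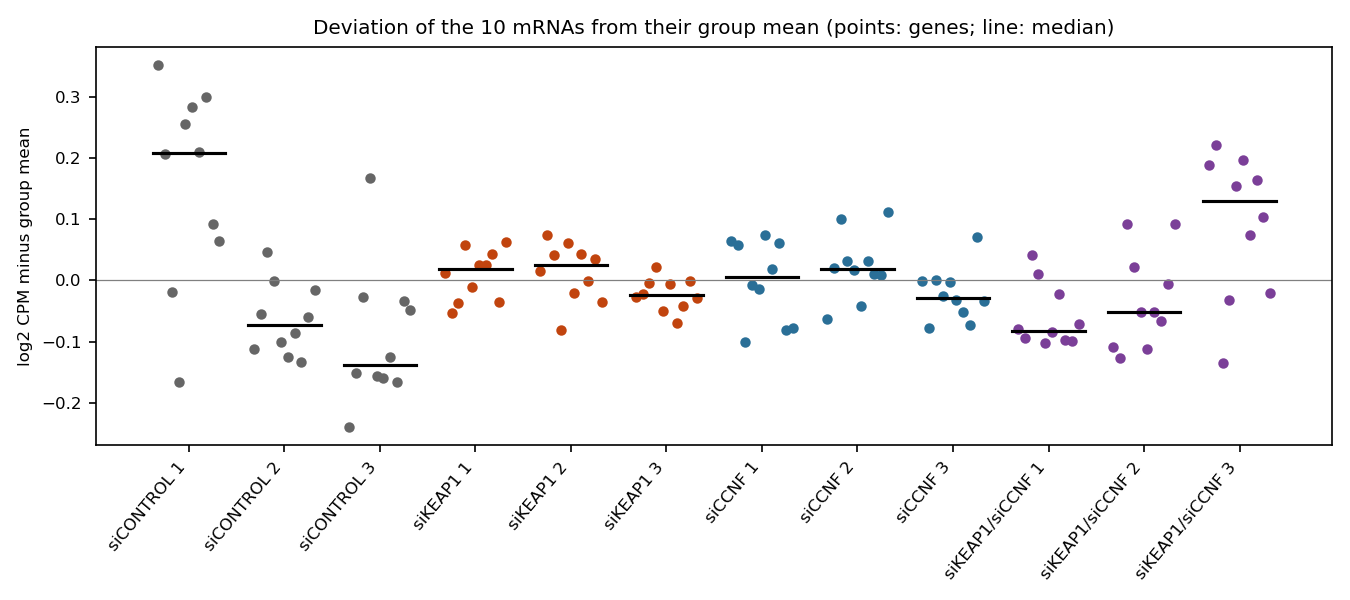
Deviation of each of the 10 mRNAs from its group mean in each library, in log2 CPM (vertical axis), with libraries by group and replicate along the horizontal axis, points for genes and a line at their median. The median was 0.21 in siCONTROL replicate 1 and 0.13 in siKEAP1/siCCNF replicate 3, and every siKEAP1 and siCCNF library had a median within 0.03 of 0.

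After siKEAP1 alone, 6 of the 10 mRNAs rose and 1 fell at an adjusted p under 0.05 (from edgeR's quasi-likelihood fit, adjusted by Benjamini-Hochberg over all genes tested, as throughout). Txnrd1 rose 3.12-fold, Prdx6 2.78-fold, Prdx1 1.96-fold, Txn1 1.84-fold, Srxn1 1.76-fold and Prdx5 1.35-fold. Txnip fell to 42.2% of its control level. Of all genes tested, 20.4% were higher and 20.2% lower, and 11.5% had also moved more than 2-fold, as 3 of the 10 had. Without siCONTROL replicate 1, 5 had, as Txn1 (1.07 log2) and Prdx1 (1.10 log2) then passed it too. After siCCNF alone, 6 of the 10 fell and 1, Txn2, rose, beside 25.5% of all genes lower and 22.5% higher. Prdx6 was the 1 member past 2-fold there (-1.01 log2), beside 11.4% of all genes, and it fell short of 2-fold in 8 of 24 alternatives, among them without siCONTROL replicate 1 (-0.96) or siCCNF replicate 1 (-0.97). The median log2 fold change of the 10 was 0.62 after siKEAP1 and -0.29 after siCCNF, against -0.01 and 0.01 over all genes tested. These comparisons share the siCONTROL libraries.

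With both factors depleted, 3 of the 10 were higher and 3 lower than in siCONTROL cells. Srxn1 (1.49-fold), Txn2 (1.41-fold) and Txnrd1 (1.39-fold) were higher, Prdx3, Txnip and Prdx6 were lower at 77.9%, 83.4% and 84.3% of control, and none of the 10 had an estimate of 2-fold or more. Among all genes 20.6% were higher, 23.6% lower and 10.3% past 2-fold. Without siCONTROL replicate 1, Txn1 (0.25 log2, adjusted p = 0.0248) and Prdx1 (0.39 log2, adjusted p = 0.000597) were called higher as well. Without the 2 libraries that stood apart, 5 members were higher and 3 lower, beside 23.4% and 25.4% of all genes. Measured against cells depleted of CCNF alone, siKEAP1 raised 5 of the 10, namely Txnrd1, Prdx6, Srxn1, Txn1 and Prdx1 by 1.73-, 1.70-, 1.55-, 1.54- and 1.44-fold, and lowered none, where 3.00% of all genes rose, 2.19% fell and 0.727% passed 2-fold in either direction. At an unadjusted p under 0.05 edgeR had 6 of the 10 higher, with Prdx3 beside the 5 named, and 1 lower (Txnip). At the adjusted threshold DESeq2 and limma called 0 lower, as edgeR did. Txnip was called lower (-0.20, adjusted p = 0.0327) with the length trend removed and the 2 libraries left out. Measured against cells depleted of KEAP1 alone, siKEAP1/siCCNF lowered 7 and raised 2 (Txnip and Txn2), with 26.9% of all genes lower, 24.1% higher and 14.5% past 2-fold, as were Prdx6 and Txnrd1. The single depletions differed from each other in 9 of the 10, and in 10 of 10 without the 2 libraries that stood apart, where 33.8% of all genes were higher and 34.1% lower. With all libraries, from siKEAP1 to siCCNF cells 7 of the 10 were lower and 2 higher, with 5 past 2-fold, where 29.9% of all genes were lower, 27.8% higher and 18.9% past 2-fold.

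**Figure D2:**
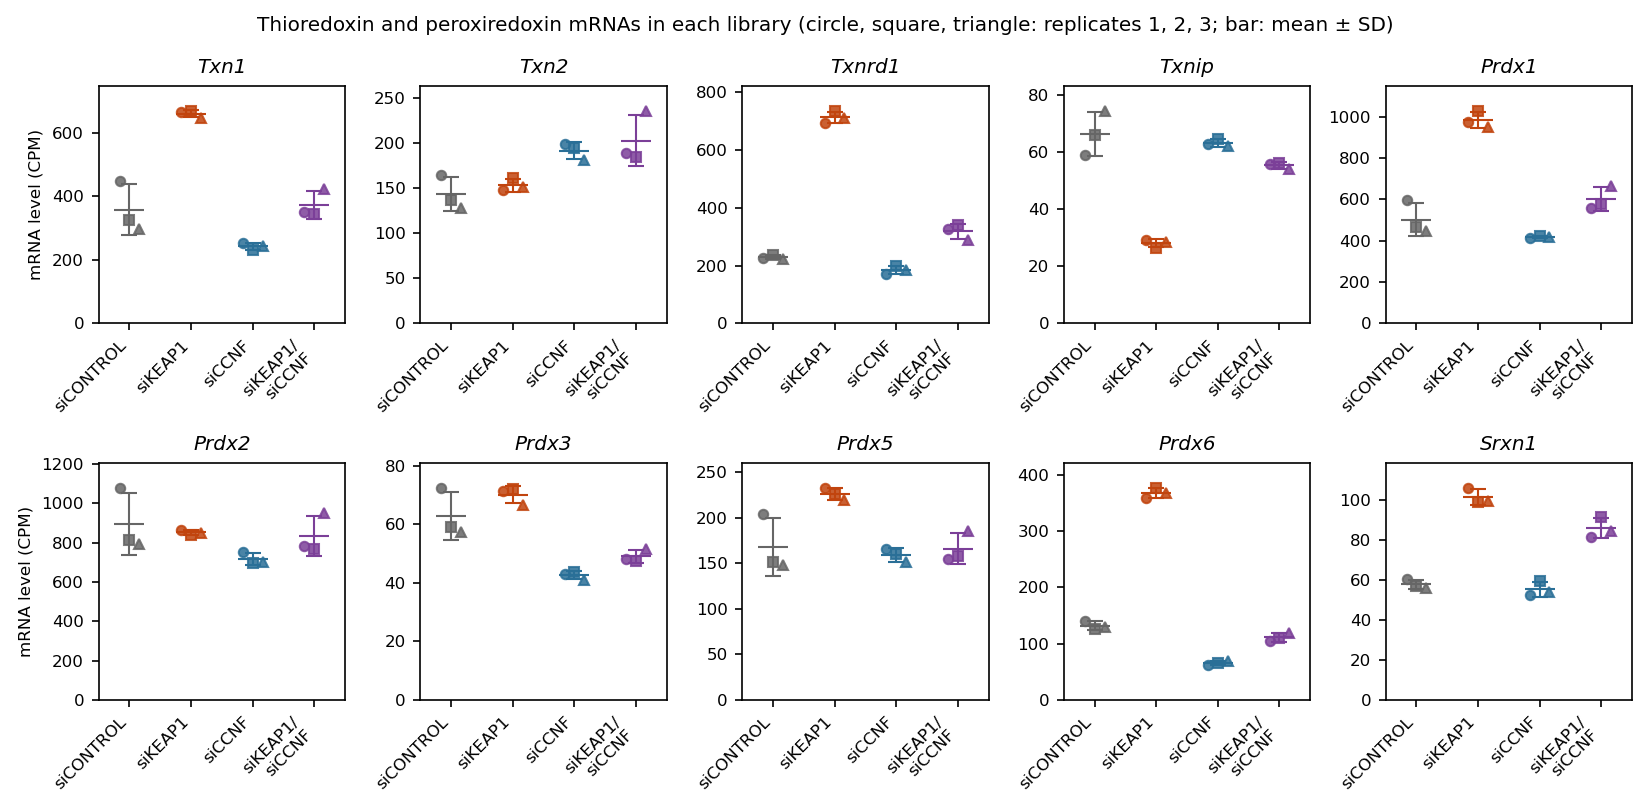
Level of each of the 10 mRNAs in CPM (vertical axis, from 0) in the 4 groups (horizontal axis), with symbols for replicates 1 to 3 and bars for the mean and SD of 3 libraries. The Txnrd1 libraries after siKEAP1 lie between 694 and 733 CPM, above all other Txnrd1 libraries, and the Txnip libraries after siKEAP1 lie between 26.5 and 29.2 CPM, below all others.

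The interaction, which is the log2 effect of siKEAP1 with CCNF depleted less that with control siRNA, tested directly whether the response differed. It was negative for Txnrd1, Prdx6 and Prdx1 and positive for Txnip, so that these effects of siKEAP1 were smaller in CCNF-depleted cells. Among all genes, 10.5% had a negative and 10.6% a positive interaction. The other 6 members missed the threshold, with estimates between -0.37 (Prdx5) and 0.29 (Prdx2). Without siCONTROL replicate 1 and siKEAP1/siCCNF replicate 3, the interaction was negative for 6 members (Txn1, Txn2, Txnrd1, Prdx1, Prdx5 and Prdx6) and positive for Txnip, beside 14.5% and 16.4% of 15545 genes. Keap1 mRNA was itself less reduced in siKEAP1/siCCNF cells (above), and its part in these differences was not tested.

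**Figure D3:**
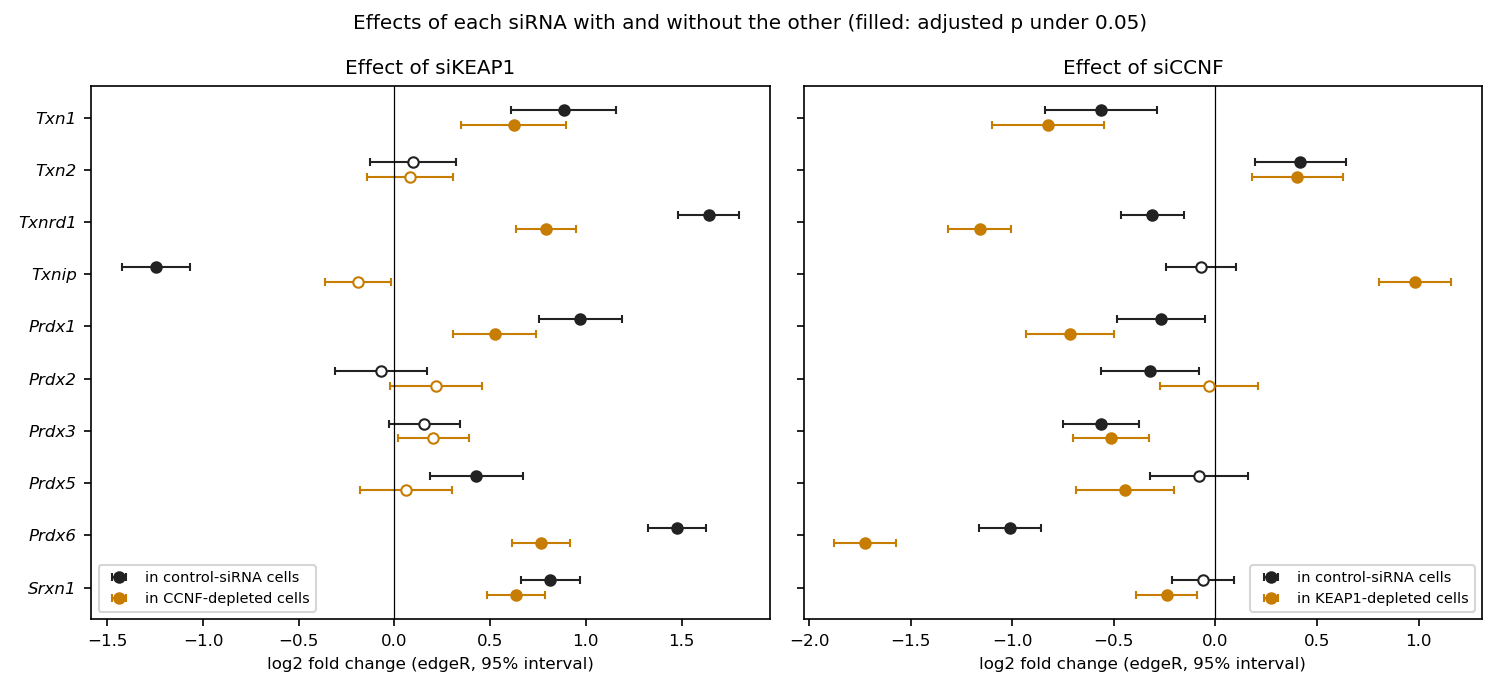
Effect of siKEAP1 (left) and of siCCNF (right) on each of the 10 mRNAs, as log2 fold change with its 95% interval (horizontal axis), in control-siRNA cells (black) and in cells depleted of the other factor (orange), with filled points for an adjusted p under 0.05. The siKEAP1 effect on Txnrd1 is 1.64 in control-siRNA and 0.79 in CCNF-depleted cells, and that on Txnip is -1.25 and -0.19.

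Among the thioredoxins, the cytosolic and the mitochondrial form moved in opposite directions after siCCNF. Txn1 (ENSMUSG00000028367, chr4:57943373-57956411 of GRCm38, minus strand), the cytosolic and nuclear thioredoxin, stood at 449, 326 and 298 CPM in the siCONTROL libraries. After siKEAP1 it stood at 665, 667 and 648 CPM, after siCCNF at 253, 232 and 242 CPM, and after siKEAP1/siCCNF at 352, 345 and 423 CPM. All siKEAP1 libraries were higher than all others, all siCCNF libraries were lower than all others, and the siCONTROL and siKEAP1/siCCNF libraries overlapped. Txn1 rose after siKEAP1 (log2 fold change 0.88, standard error 0.127, adjusted p = 9.99e-05) and fell after siCCNF (log2 fold change -0.56, standard error 0.127, adjusted p = 0.00259). With 1 library left out at a time that fall lay between -0.68 and -0.36 and stayed called. The rise of Txn1 in CCNF-depleted cells (0.62, adjusted p = 0.013) lost its call without siCCNF replicate 2 (0.58, adjusted p = 0.058) or 3 (0.61, adjusted p = 0.0582). The interaction of Txn1 was -0.26 with all libraries (95% interval -0.65 to 0.13, adjusted p = 0.344). Without the 2 libraries that stood apart it was -0.55 (adjusted p = 1.89e-05), and Txn1 was then higher in siKEAP1/siCCNF than in siCONTROL cells (0.15, adjusted p = 0.0258), compared with 0.06 (adjusted p = 0.726) with all libraries.

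Txn2 (ENSMUSG00000005354, chr15:77915047-77929006, minus strand), the mitochondrial thioredoxin, was the 1 member that rose after siCCNF. Its level was 164, 137 and 128 CPM in siCONTROL, 148, 161 and 151 after siKEAP1, 199, 194 and 181 after siCCNF, and 189, 184 and 235 after siKEAP1/siCCNF. Every library with siCCNF was thus above every library without it. The rise was 0.42 log2 after siCCNF (standard error 0.104, adjusted p = 0.00492) and 0.40 when siCCNF was added to siKEAP1 (adjusted p = 0.0057). No response to siKEAP1 passed the test with all libraries (0.10, 95% interval -0.13 to 0.32, adjusted p = 0.491). Without the 2 libraries it did (0.20, adjusted p = 0.00549), and the interaction became -0.24 (adjusted p = 0.0202), compared with -0.02 (adjusted p = 0.959) before.

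Txnrd1 (ENSMUSG00000020250, chr10:82833951-82897712, plus strand), the cytosolic thioredoxin reductase, gave the largest rise of the set after siKEAP1. It stood at 225, 236 and 224 CPM in siCONTROL, 694, 733 and 710 after siKEAP1, 171, 197 and 184 after siCCNF, and 327, 339 and 290 after siKEAP1/siCCNF. The 4 groups did not overlap. The log2 fold change was 1.64 after siKEAP1 (standard error 0.0732, adjusted p = 3.88e-09) and 0.79 in CCNF-depleted cells (standard error 0.0719, adjusted p = 3.56e-05). The difference between these, the interaction of -0.85 (95% interval -1.07 to -0.63, adjusted p = 8.64e-05), was the most negative of the set with all libraries. siCCNF lowered Txnrd1 in control-siRNA cells (-0.31, adjusted p = 0.003) and in KEAP1-depleted cells (-1.16, adjusted p = 4.08e-08). Without the 2 libraries the interaction was -0.77 (adjusted p = 1.7e-06), and that of Prdx6, at -0.81, was then the most negative. Compared per length, there were 9.77 ± 2.03 FPKM (the deposited values scaled to gene length and library size) of Txnrd1 for each 100 FPKM of Txn1 in siCONTROL, 16 ± 0.462 after siKEAP1, 11.3 ± 1.29 after siCCNF and 12.8 ± 2.37 after both (SD, n = 3, without a test). The siCONTROL value was 7.44 in replicate 1 and 10.7 and 11.1 in the others. After both siRNAs it was 10.1 in replicate 3 and 13.8 and 14.6 in the others.

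Txnip (ENSMUSG00000038393, chr3:96557957-96561883, plus strand), the thioredoxin inhibitor, fell after siKEAP1 alone. Its level was 59.0, 66.1 and 74.4 CPM in siCONTROL and 29.2, 26.5 and 28.5 CPM after siKEAP1. It was 63.0, 64.7 and 62.2 CPM after siCCNF, and 55.8, 56.3 and 54.2 CPM after siKEAP1/siCCNF. The siKEAP1 libraries were below all others, and those of siCCNF lay within the siCONTROL range. Txnip fell by 1.25 on the log2 scale after siKEAP1 (standard error 0.0818, adjusted p = 9.75e-08). In CCNF-depleted cells the estimate was -0.19 (95% interval -0.36 to -0.02, adjusted p = 0.213), and the interaction of 1.06 (95% interval 0.81 to 1.30, adjusted p = 4.09e-05) gives the size of that difference. siCCNF left Txnip at 95.1% of control in control-siRNA cells (adjusted p = 0.477) and raised it 1.98-fold in KEAP1-depleted cells (adjusted p = 5.27e-07). Without the 2 libraries siCCNF alone lowered Txnip slightly (-0.15, adjusted p = 0.0425). The deficit of siKEAP1/siCCNF against siCONTROL (-0.26, adjusted p = 0.0162) lost its call without siCONTROL replicate 3 (-0.18, adjusted p = 0.0743). With the compared libraries alone it was not called either (-0.26, adjusted p = 0.0807). For each 1000 FPKM of Txn1 there were 65.5 ± 20.0 FPKM of Txnip in siCONTROL, 14.3 ± 0.812 after siKEAP1, 88.0 ± 5.35 after siCCNF and 50.5 ± 6.49 after both (SD, n = 3, without a test). The libraries that stood apart were the lowest of their groups. In siCONTROL the value was 44.2 in replicate 1 and 68.4 and 83.9 in the others. After both siRNAs it was 43.1 in replicate 3 and 53.4 and 55.0 in the others. The antisense gene Gm15441 overlaps Txnip but had at most 7 reads in a library.

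Prdx6 (ENSMUSG00000026701, chr1:161240112-161251219, minus strand), a peroxiredoxin with a single active cysteine that also acts on phospholipids, spanned the widest range of the set on the log2 scale. It stood at 140, 126 and 129 CPM in siCONTROL and at 358, 376 and 367 CPM after siKEAP1. After siCCNF it stood at 61.8, 65.7 and 68.7 CPM, and after siKEAP1/siCCNF at 104, 111 and 119 CPM. The 4 groups did not overlap, and the mean level after siCCNF was 17.8% of that after siKEAP1. Prdx6 rose by 1.48 log2 after siKEAP1 (standard error 0.0701, adjusted p = 5.95e-09) and fell by 1.01 after siCCNF (standard error 0.07, adjusted p = 1.4e-07). In CCNF-depleted cells siKEAP1 raised it by 0.77 (standard error 0.0697, adjusted p = 3.56e-05), which was less than in control-siRNA cells (interaction -0.71, 95% interval -0.92 to -0.50, adjusted p = 0.000248). It was slightly below control in siKEAP1/siCCNF cells (-0.25, adjusted p = 0.011). That call was lost without siKEAP1/siCCNF replicate 1 (-0.20, adjusted p = 0.0542) and with the compared libraries alone (-0.24, adjusted p = 0.0635).

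Prdx1 (ENSMUSG00000028691, chr4:116685544-116700822, plus strand), the abundant cytosolic peroxiredoxin, stood at 594, 464 and 447 CPM in siCONTROL and at 975, 1025 and 949 CPM after siKEAP1. It was 413, 422 and 416 CPM after siCCNF, and 557, 576 and 665 CPM after siKEAP1/siCCNF. The siKEAP1 libraries were above all others, the siCCNF libraries were below all others, and those of siCONTROL and siKEAP1/siCCNF overlapped through siCONTROL replicate 1. Prdx1 rose after siKEAP1 (0.97, standard error 0.1, adjusted p = 5.55e-06) and, in CCNF-depleted cells, by 0.52 (adjusted p = 0.00887). The interaction of -0.45 passed narrowly (95% interval -0.75 to -0.14, adjusted p = 0.0386). With 1 library left out at a time it lay between -0.58 and -0.37, and it stayed called only without siCONTROL replicate 1 (adjusted p = 0.000691) or siKEAP1/siCCNF replicate 3 (adjusted p = 0.0154). Without both of these it was -0.66 (adjusted p = 1.1e-06). Its fall after siCCNF (-0.27, adjusted p = 0.0407) lost its call in 13 of 24 alternatives, among them both limma fits, the compared libraries alone and leaving out any 1 siKEAP1 or siCCNF library. It was -0.13 without siCONTROL replicate 1 (adjusted p = 0.156) and -0.13 without the 2 libraries (adjusted p = 0.0197). Its level in siKEAP1/siCCNF against siCONTROL (0.26, adjusted p = 0.0524) was called higher in 9 of 24 alternatives. Among them were DESeq2 (0.26, adjusted p = 0.0396) and the fit without siCONTROL replicate 1 (0.39, adjusted p = 0.000597). Without the 2 libraries it was a rise of 0.31 (adjusted p = 5.28e-05). The processed pseudogene Gm21399 is 98.3% identical to Prdx1 over 597 bases and held 0.501% as many reads, so a small exchange of reads between them is possible.

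Srxn1 (ENSMUSG00000032802, chr2:152105516-152111376, plus strand), the sulfiredoxin, rose with siKEAP1 in both backgrounds. Its level was 60.3, 57.1 and 55.8 CPM in siCONTROL, 106, 99.0 and 99.5 after siKEAP1, 52.3, 59.6 and 53.9 after siCCNF, and 81.7, 91.4 and 84.6 after siKEAP1/siCCNF. The libraries without siKEAP1 overlapped each other and lay below all libraries with it. The log2 fold change of siKEAP1 was 0.81 in control-siRNA cells (standard error 0.0711, adjusted p = 1.24e-06) and 0.64 in CCNF-depleted cells (standard error 0.0705, adjusted p = 0.000197), with an interaction of -0.18 (95% interval -0.39 to 0.04, adjusted p = 0.241). siCCNF alone gave -0.06 (95% interval -0.22 to 0.09, adjusted p = 0.491). The decrease from siKEAP1 to siKEAP1/siCCNF (-0.24, adjusted p = 0.0115) lost its call without siKEAP1 replicate 1 (-0.21, adjusted p = 0.0509) or siKEAP1/siCCNF replicate 1 (-0.20, adjusted p = 0.0542). With the length trend removed and the 2 libraries left out it was not called either (-0.13, adjusted p = 0.075). Srxn1 amounted to 30.0 ± 3.22 FPKM per 1000 FPKM of Prdx1 to Prdx6 in siCONTROL, 40.1 ± 1.49 after siKEAP1, 34.1 ± 3.03 after siCCNF and 44.7 ± 5.61 after both (SD, n = 3, without a test).

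The estimates of Prdx2, Prdx3 and Prdx5 stayed within 2-fold in every comparison. Prdx3 (ENSMUSG00000024997, chr19:60864051-60874556, minus strand), the mitochondrial peroxiredoxin, ranged from 41.1 CPM after siCCNF to 72.3 CPM in siCONTROL replicate 1. The libraries with siCCNF lay below all libraries without it. Prdx3 fell after siCCNF in control-siRNA cells (-0.56, standard error 0.086, adjusted p = 0.000133) and in KEAP1-depleted cells (-0.51, standard error 0.0857, adjusted p = 0.000242), the opposite direction to Txn2, the thioredoxin of the same compartment. After siKEAP1 its estimate was 0.16 (95% interval -0.03 to 0.34, adjusted p = 0.172), which passed without the 2 libraries (0.26, adjusted p = 0.0012). Prdx5 (ENSMUSG00000024953, chr19:6906697-6910106, minus strand), found in mitochondria, peroxisomes and cytosol, ranged from 148 to 233 CPM, and its siKEAP1 libraries (220 to 233 CPM) were above all others. It rose by 0.43 after siKEAP1 (standard error 0.111, adjusted p = 0.00749). In CCNF-depleted cells the estimate was 0.06 (95% interval -0.18 to 0.30, adjusted p = 0.838). The interaction of -0.37 (adjusted p = 0.123) reached -0.61 without the 2 libraries (adjusted p = 3.68e-06).

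Prdx2 (ENSMUSG00000005161, chr8:84969587-84974834, plus strand), a cytosolic peroxiredoxin and per length the most abundant in siCONTROL, ranged from 696 CPM after siCCNF to 1079 CPM in siCONTROL replicate 1. The other siCONTROL libraries, at 812 and 793 CPM, lay below those of siKEAP1, at 840 to 867 CPM. Its estimate after siKEAP1 was -0.07 (95% interval -0.31 to 0.17, adjusted p = 0.649). It was lower after siCCNF (-0.32, adjusted p = 0.03), a call lost in 6 of 24 alternatives, namely both limma fits, the compared libraries alone, and without siCCNF replicate 2 (adjusted p = 0.0887), siCCNF replicate 3 (adjusted p = 0.0872) or siCONTROL replicate 1 (-0.16, adjusted p = 0.112). Without the 2 libraries Prdx2 was also lower in siKEAP1/siCCNF than in siKEAP1 cells (-0.13, adjusted p = 0.0193, compared with -0.03, adjusted p = 0.833) and lower in siCCNF than in siKEAP1 cells (-0.24, adjusted p = 6.52e-05, compared with -0.25, adjusted p = 0.0711). The difference between siCCNF and siKEAP1 cells was also called from those 2 groups fitted alone (-0.24, adjusted p = 0.000442). Prdx2 and Prdx5 overlap genes on the opposite strand, Prdx2 with Junb and Rnaseh2a and Prdx5 with Trmt112, which held 65.0%, 8.20% and 26.6% as many reads. These percentages count reads over the whole of each overlapping gene. The longest stretch that transcripts of the member shared with each was 176, 154 and 360 bases in the same order. Whether the counting used strand is not given in the sources used here, so reads from the shared stretches may be counted for Prdx2 and Prdx5. Their number was not measured.

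The make-up of the peroxiredoxin mRNA is described without a test. Compared per length, as shares of the summed FPKM of Prdx1 to Prdx6, Prdx2 was the largest part in siCONTROL with 42.4 ± 0.874% (SD, n = 3) and Prdx1 the next with 23.9 ± 0.189%. After siKEAP1 Prdx1 was the larger, at 36.0 ± 0.863%, and Prdx2 stood at 31.1 ± 0.791%. Prdx6 made up 4.02 ± 0.380% in siCONTROL, 8.52 ± 0.246% after siKEAP1, 2.37 ± 0.195% after siCCNF and 3.38 ± 0.170% after both. In siKEAP1/siCCNF cells Prdx1 held 28.7 ± 0.511% and Prdx2 39.8 ± 0.771%. The share of Prdx4, the peroxiredoxin of the endoplasmic reticulum, was 12.1 ± 0.788%, 7.26 ± 0.262%, 15.0 ± 0.544% and 12 ± 0.153% in siCONTROL, siKEAP1, siCCNF and siKEAP1/siCCNF. The sum was 685 ± 108, 894 ± 18, 570 ± 20.0 and 682 ± 73.9 FPKM in the same order. In siCONTROL replicate 1 the sum was 809 FPKM, beside 632 and 614 in its companions, and the shares there were 24.0% for Prdx1, 43.4% for Prdx2, 11.2% for Prdx4 and 3.59% for Prdx6, beside 23.7% to 24.0%, 41.9%, 12.5% to 12.7% and 4.14% to 4.32% in the companions.

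**Figure D4:**
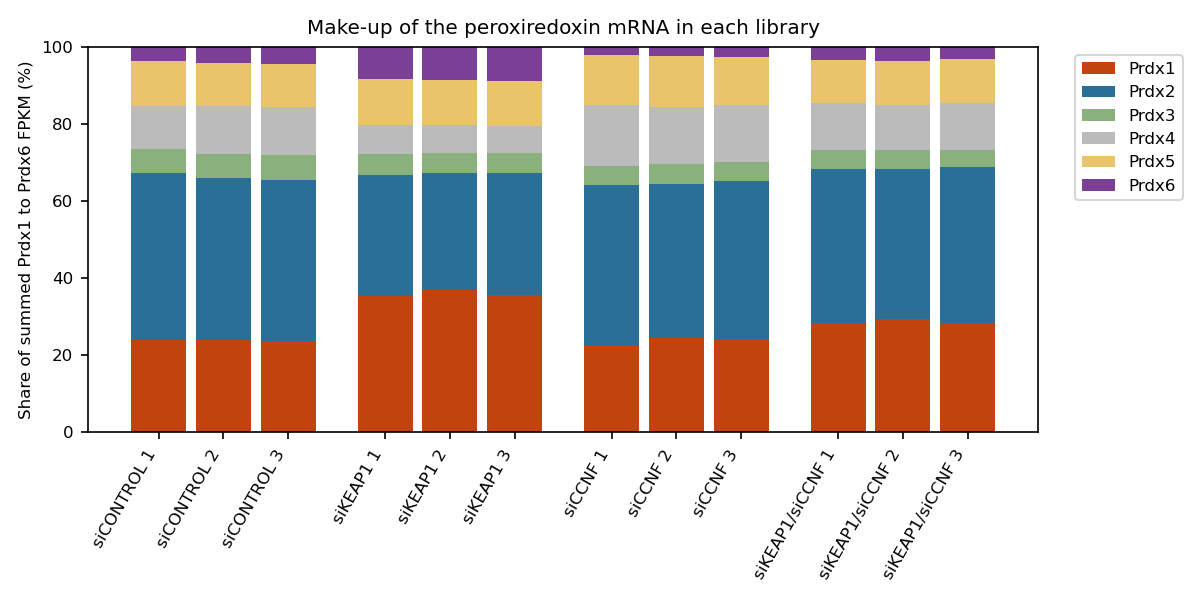
Share of each peroxiredoxin in the summed FPKM of Prdx1 to Prdx6 (vertical axis, percent) in each of the 12 libraries (horizontal axis), as stacked bars. Prdx1 takes 36.0% on average after siKEAP1 and 23.9% in siCONTROL, and Prdx6 8.52% and 4.02%.

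Other genes of the pathway were read from lists, with all libraries unless stated. Of 10 further redoxins and reductases, 2 rose and 3 fell after siKEAP1, 1 rose and 5 fell after siCCNF, and 3 rose and 4 fell after both siRNAs. Of all genes, 20.4%, 22.5% and 20.6% rose and 20.2%, 25.5% and 23.6% fell. With the 2 libraries that stood apart left out, 3 rose and 3 fell, 3 rose and 5 fell, and 4 rose and 4 fell, where 23.6%, 26.7% and 23.4% of all genes rose and 25%, 27.9% and 25.4% fell. With all libraries their median log2 fold changes were -0.14, -0.24 and -0.11. Gsr, the glutathione reductase, stood at 52.8, 51.3 and 48.9 CPM in siCONTROL, 168, 170 and 162 after siKEAP1, 37.7, 41.9 and 41.0 after siCCNF, and 69.9, 70.6 and 62.3 after siKEAP1/siCCNF. It ran parallel to Txnrd1, with a rise of 1.71 log2 after siKEAP1 (adjusted p = 1.72e-09) and an interaction of -0.96 (adjusted p = 2.85e-05). Glrx, a cytosolic glutaredoxin, rose by 0.94 after siKEAP1 (adjusted p = 1.37e-06) and fell by 0.78 after siCCNF (adjusted p = 6.53e-06). Prdx4 fell after siKEAP1 (-0.35, adjusted p = 0.00674), where Prdx1, Prdx5 and Prdx6 rose. Txnrd2, the mitochondrial thioredoxin reductase, fell after siCCNF (-1.02, adjusted p = 0.000461).

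A list of 8 genes held 7 ribonucleotide and methionine sulfoxide reductase genes, whose enzymes draw electrons from thioredoxin, and Map3k5, which encodes the kinase ASK1 that thioredoxin binds and inhibits. After siKEAP1, 1 of the 8 rose (Map3k5, 0.82, adjusted p = 0.0456, and 0.52, adjusted p = 0.164, without siCONTROL replicate 1) and 2 fell (Rrm1 and Msrb3), beside 20.4% and 20.2% of all genes. After siCCNF, 1 rose and 6 fell, beside 22.5% and 25.5%. Of these falls, Msrb1 (-0.39) and Msrb2 (-1.24) lost their calls without siCONTROL replicate 1 (-0.24, adjusted p = 0.113, and -0.95, adjusted p = 0.0764). The ribonucleotide reductase subunits Rrm1, Rrm2 and Rrm2b fell by 0.62, 0.76 and 1.45 log2 after siCCNF. The methionine sulfoxide reductase Msra fell by 1.77, from a range of 11.8 to 15.0 CPM to one of 3.27 to 4.08 CPM, whereas Msrb3 rose by 0.73. The proliferation markers fell in the same cells, and their part in the ribonucleotide reductase values was not tested. Of 5 factors that insert selenocysteine, which thioredoxin reductases need, 1 fell after siKEAP1 (Pstk, -0.55), beside 20.2% of all genes, and the other 4 passed in neither direction, with estimates between -0.29 and 0.18. Leaving out the 2 libraries, 1 rose and 3 fell, beside 23.6% and 25% of all genes. After siCCNF, 2 rose (Secisbp2, 0.46, and Pstk, 0.38) and 2 fell (Sephs2, -0.63, and Sepsecs, -0.26). Of the regulators of Txnip, Mlx rose by 0.22 after siKEAP1 (adjusted p = 0.0315, and 0.19, adjusted p = 0.0726, without siCONTROL replicate 1) and by 0.56 after siCCNF (adjusted p = 3.66e-05). Mlxip, which encodes MondoA, passed in neither (-0.13 and -0.08) with all libraries and was lower in both without the 2 (-0.30, adjusted p = 0.00236, and -0.24, adjusted p = 0.0091), and Mlxipl, which encodes ChREBP, was at 0.031 CPM or less in every group mean. Arrdc4, the relative of Txnip, stood at 1.71 CPM in siCONTROL and rose after siCCNF (1.13, adjusted p = 0.00347). After siKEAP1 its estimate was -0.63 (adjusted p = 0.119).

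Across the 12 libraries, Txn1, Txnrd1, Prdx1 and Prdx6 varied together, with Pearson r of log2 CPM between 0.92 and 0.98 for each pair. Txnip ran against them, with r between -0.95 and -0.89, while Txn2 had r between -0.50 and -0.18 with these 4. The libraries fall into the 4 groups and share their treatments, so these values describe the groups and carry no test. Among 11824 genes with a mean of at least 1 log2 CPM, the genes most like Txnrd1 were Gsr (r = 0.998), Gclc (r = 0.995) and Maoa (r = 0.991). Prdx6 was nearest to Mgst3 (r = 0.997), Adssl1 and Hspb8, Txnip to Fndc1 (r = 0.992), Mex3a and Magee1, and Txn1 to Bzw2 (r = 0.991), Retreg2 and Lgals3. Prdx1 was nearest to its pseudogene Gm21399 (r = 0.996), followed by Lgals3 and Sod1.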

How the data were processed

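Poly(A) RNA of 12 C2C12 libraries was sequenced and analysed by Novogene. The authors deposited 1 table of 54532 genes with read counts per gene without normalization, FPKM values (scaled to gene length and library size), and gene length in bases as another column. The labels name HISAT2 and GRCm39, whereas 53462 of 54409 genes shared with GENCODE M21, all 10 members among them, have its GRCm38 coordinates, which are used here. The counter and its handling of strand are not given in the sources used here. Columns of the authors' own comparisons hold fold changes and p-values and were not used.

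Counts were fitted with edgeR 4.0.16 in R 4.3.3 (filterByExpr, TMM, quasi-likelihood, 4 group means, all 12 libraries). A gene was called at a Benjamini-Hochberg adjusted p under 0.05 over 15122 genes, and a 2-fold threshold was added where stated. P-values rest on the spread between the 3 replicates of a group, estimated per gene over all 4 groups together. Libraries outside a comparison therefore affect its p-value. Levels are CPM as mean ± SD, and log2 CPM used a prior count of 2. The deposited FPKM served comparisons between genes. Near copies were sought with BLAST 2.17.0. On simulated data with 14774 genes, edgeR recovered a median of 1.03 log2 for genes raised 2-fold after siKEAP1 and called 72.0% of them (57.1% at 1.5-fold and 53.2% of those lowered to 0.667 of control), and it called 9 of 14580 unchanged genes. Far fewer genes changed in the simulation than were called in these data, they were drawn at all expression levels, and no library stood apart. Its rates of calls therefore check the procedure and do not carry over to the members.

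The members, lists and tests were chosen with earlier results of these data known. Named genes were the members, the lists by role, and for each member that passed 2-fold in a comparison the 3 genes most like it. Alternatives were DESeq2 1.42.0, limma 3.58.1 on log2(FPKM + 1) or log2(FPKM + 0.1), total library sizes, other count filters, a replicate block, removal of a length trend, the compared libraries alone and leaving out libraries. The removal of 2 libraries together was added after seeing the data.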

Additional observations from a re-analysis of the deposited data

Results flagged for a closer look

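For 9 of 36 genes tested from the system and its lists, the effect of siKEAP1 differed between CCNF-depleted and control-siRNA cells by edgeR's interaction test, beside 10.5% of all genes with a negative and 10.6% with a positive interaction. Among the members the difference in log2 effect was -0.85 for Txnrd1, -0.71 for Prdx6, -0.45 for Prdx1 and 1.06 for Txnip. The call of Prdx1 was lost in 11 of 23 alternatives, and those of the other 3 in none. Among the other genes it was -0.96 for Gsr, -0.56 for Glrx, 0.65 for Rrm1, 0.39 for Rrm2 and 0.30 for Msrb3. Rrm1 and Msrb3 fell after siKEAP1 in control-siRNA cells (-0.50 and -0.45) and had estimates of 0.15 and -0.15 in CCNF-depleted cells.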

How the results depend on the processing

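Of 70 values (10 genes in 7 comparisons), 44 kept their direction and their side of the threshold under every alternative run, and of 1670 recomputed values 1555 did so, 42 lost their call, 35 gained one and 38 changed sign. All sign changes were of estimates that were not called with all libraries. With the 2-fold threshold added, 3, 1 and 0 members remained for siKEAP1, siCCNF and siKEAP1/siCCNF against siCONTROL, 0 for siKEAP1/siCCNF against siCCNF, 2 for siKEAP1/siCCNF against siKEAP1 and 5 for siCCNF against siKEAP1. Without siCONTROL replicate 1 the first 2 of these became 5 and 0. With 1 library left out at a time these 6 comparisons called 7 to 8, 5 to 7, 5 to 8, 4 to 5, 8 to 9 and 8 to 10 members, and the interaction 3 to 6. Among all genes these settings called 5113 to 6686, 6269 to 7672, 5882 to 6943, 363 to 1404, 6665 to 8629 and 7787 to 9615. For the interaction they called 2429 to 3397. Without siCONTROL replicate 1 and siKEAP1/siCCNF replicate 3 together the interaction called 7 members.

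With these 2 libraries left out, estimates that changed sign were Prdx2 after siKEAP1 (0.0737), Prdx5 after siCCNF (0.0865) and after siKEAP1/siCCNF (0.0569), Txn2 and Prdx5 in siKEAP1/siCCNF against siCCNF (-0.0424 and -0.0295) and the interaction of Prdx3 (-0.0971). With the length trend removed as well, Prdx5 gave 0.0687 after siCCNF, 0.0285 after siKEAP1/siCCNF and -0.0402 against siCCNF, and Txn2 -0.0604 against siCCNF. Removing the length trend alone gave -0.0144 for Txn1 in siKEAP1/siCCNF against siCONTROL, 0.0458 for Prdx2 in siKEAP1/siCCNF against siKEAP1 and 0.0347 for the interaction of Txn2, which total library sizes put at 0.0007. With 1 library left out at a time, Prdx2 ranged from -0.16 to 0.0745 after siKEAP1, from -0.21 to 0.0449 after siKEAP1/siCCNF and from -0.13 to 0.0252 in siKEAP1/siCCNF against siKEAP1. Prdx5 ranged from -0.16 to 0.0864 after siCCNF, from -0.11 to 0.14 after siKEAP1/siCCNF and from -0.0298 to 0.11 against siCCNF. Txn1 after siKEAP1/siCCNF ranged from -0.0613 to 0.25, Txnip after siCCNF from -0.15 to 0.0145, Txn2 in siKEAP1/siCCNF against siCCNF from -0.0425 to 0.14, and the interactions of Txn2 and Prdx3 from -0.13 to 0.0595 and from -0.0631 to 0.11. The cause of these changes was not tested.

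Replicate numbers are shared between groups, but the deviations of same-numbered libraries correlated between -0.27 and 0.20, so the numbers were not taken to pair the samples. A replicate block left the members called at 7, 6, 5, 9 and 9 for siKEAP1, for siKEAP1/siCCNF against siCONTROL, against siCCNF and against siKEAP1, and for siCCNF against siKEAP1, and gave 6 for siCCNF against siCONTROL, where Prdx1 was lost (-0.26, adjusted p = 0.0635), and 3 for the interaction, where Prdx1 was lost. Among all genes the block called 5953, 6509, 642, 7554, 8591, 7081 and 2964 in the same order. With the length trend removed and the replicate block, Txn1 was -0.0098 in siKEAP1/siCCNF against siCONTROL, Prdx2 0.0462 in siKEAP1/siCCNF against siKEAP1, and the interaction of Txn2 0.0319.

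Among all genes tested, siKEAP1/siCCNF against siCCNF called 785 genes by edgeR, 1257 by DESeq2, 1194 with the length trend removed, 516 from the compared libraries alone, 363 to 1404 with 1 library left out, and 2186 without the 2 libraries. The interaction called 3181 genes and 4806 without the 2 libraries. In the fit of all 12 libraries, with 3 a group, the standard errors of Txn1, Prdx2 and Prdx5 were 0.111 to 0.179 log2. Estimates as far from 0 as -0.25 (Prdx2, siCCNF against siKEAP1) and -0.37 (the interaction of Prdx5) were not called there. That of Prdx2 was called by edgeR from the compared libraries alone (-0.24, adjusted p = 0.000442). It was also called without siCONTROL replicate 1, which lies outside that comparison (-0.24, adjusted p = 0.0112). That of Prdx5 was called without the same library (-0.53, adjusted p = 0.00206).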
